A study of Mus musculus with 2 samples.

Results

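Transcript levels of the Fox, Sox, Gata, Klf, Sp, Ets, Grhl, Rfx and Prdm genes and of *Insm1*, *Insm2*, *St18*, *Myt1*, *Myt1l*, *Gfi1* and *Gfi1b* were described in 2 libraries from mouse small-intestinal organoids. These genes encode DNA-binding regulators and were chosen by symbol alone. The choice took 152 of the 23793 rows of the deposited tables, of which 147 are protein-coding genes and 5 are non-coding transcripts named after a neighbouring member (*Gata5os*, *Foxd2os*, *Foxl2os*, *Sox2ot* and *Sox5os3*). The organoids, which are cultures of intestinal epithelium grown in Matrigel from isolated crypts, came from ChgA-GFP reporter mice, which mark cells that express chromogranin A, a protein of enteroendocrine granules. They were kept in medium with epidermal growth factor, noggin and R-spondin. Cells were sorted by fluorescence into a GFP+ fraction, about 1% of the epithelial cells per the labels, and a GFP- fraction that held the remaining cells of the same strain and culture. There was 1 GFP+ library and 1 GFP- library, so no replicates stand behind any difference given here and no p-value can be had. The labels give no age or sex of the mice and no number of mice or cultures behind a library.

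Forkhead (Fox) and Gata proteins open and mark the chromatin of gut endoderm and stay in use in the adult epithelium, where they set regional and cell-type programmes. Ets and Klf proteins bind short GGAA-type and GC-rich sites in very many promoters and include some of the most abundant regulators of crypts and villi. A smaller set, among them Rfx6, Insm1, St18, Myt1 and the Ets protein Fev, is known from cells that release peptides or amines, in the pancreas, the gut and the nervous system. Enterochromaffin cells are the serotonin-making enteroendocrine cells, and Fev, also called Pet1, is best known for keeping serotonin genes active in the raphe neurons of the mouse brain.

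Values are FPKM, which are fragment numbers divided by transcript length and by library size. Differences are log2((FPKM + 1) in GFP+ / (FPKM + 1) in GFP-), a scale on which low genes appear to differ less than their FPKM do. A gene was counted when it had 1 FPKM or more in the higher library and this difference reached 2 in either direction, which is 4-fold. The 6 enterochromaffin markers (*Tph1*, *Slc18a1*, *Tac1*, *Trpa1*, *Ddc* and *Lmx1a*) were all higher by this rule in GFP+, with a summed level of 5350 FPKM in GFP+ cells and 175 FPKM in GFP- cells. The gene behind the reporter, *Chga*, had no estimate in GFP+, where its deposited status is HIDATA, so its level there cannot be read as 0. It was at 133 FPKM in GFP-, so the GFP- cells were not free of enteroendocrine transcripts. Among 7 hormone genes of other enteroendocrine cells, 4 were lower by the rule (4.59% of all genes tested were) and 0 were higher. The 7 summed to 180 FPKM in GFP+ cells and 580 FPKM in GFP- cells. The 4 lower ones, *Gcg*, *Sst*, *Ghrl* and *Nts*, were below 1 FPKM in GFP+. They entered the comparison through GFP-, so their sign was set by the filter. In such bulk samples fewer cells of a type and less RNA per cell cannot be told apart.

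Every member past the 4-fold rule was on the GFP+ side. Of the 152 members, 76 reached 1 FPKM in a library, and of these 11 were at least 4-fold higher in GFP+, 0 were at least 4-fold lower and 65 lay between. Over all 11868 genes of at least 1 FPKM, 841 (7.09%) were higher by this rule and 545 (4.59%) were lower. With the median ratio of well-expressed genes set to 0 the numbers were 16 and 0 for the members and 1317 and 184 for all genes. The 11 members were *Rfx6*, *Fev*, *Ets1*, *Myt1*, *St18*, *Klf2*, *Insm1*, *Foxa1*, *Rfx2*, *Sox13* and *Etv1*. Their FPKM ratios of GFP+ over GFP- ran between 5.94 and 52.0. Of them, *Myt1*, *St18*, *Rfx2* and *Etv1* were below 1 FPKM in GFP- and entered the comparison through GFP+, so their sign was set by the filter. Among the 63 members of at least 1 FPKM in both libraries, 7 (11.1%) were at least 4-fold higher, and among the 10199 genes of that kind 436 (4.27%) were.

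**Figure D1:**
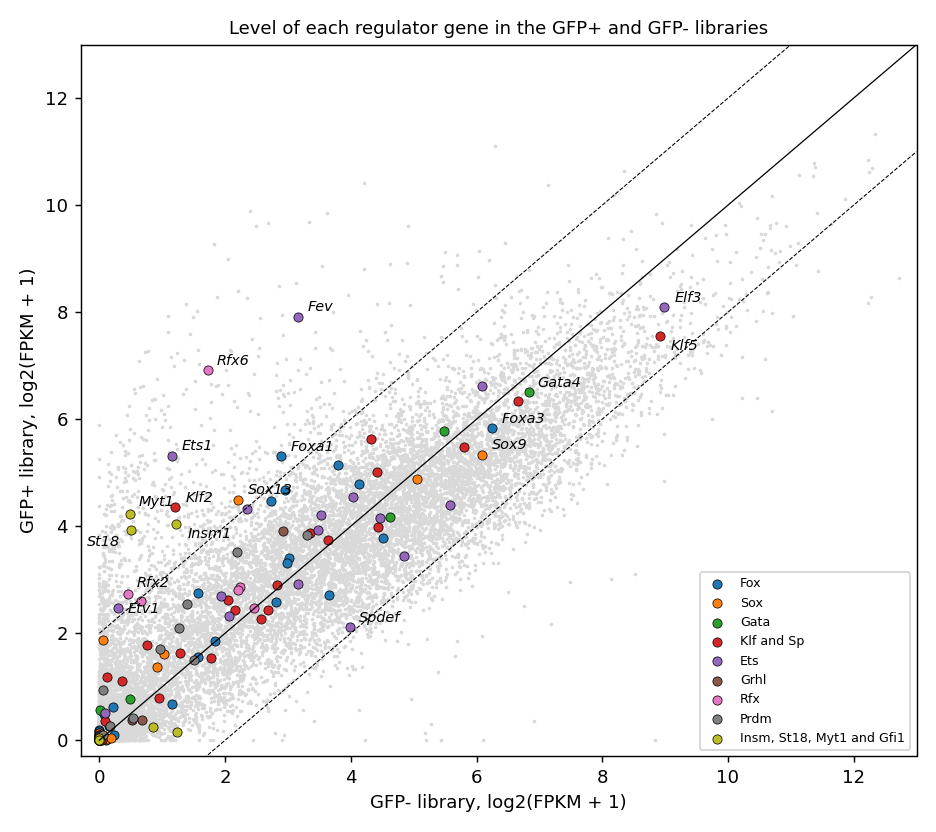
Level of each of the 152 members in the GFP+ library (vertical axis) against the GFP- library (horizontal axis), both as log2(FPKM + 1), coloured by family, with all other genes in grey; the solid line marks equal levels and the dashed lines a difference of 2. The 11 members above the upper dashed line are named, as are 6 others, and no member lies below the lower dashed line.

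The other 76 members stayed below 1 FPKM in both libraries, the highest value among them being 0.931 FPKM for *Klf1* in GFP-. Within this low set 16 were listed at 0 in both libraries, 27 were listed at 0 in GFP- only and 4 in GFP+ only. Zeros were more frequent in GFP- over all symbols too. By level, symbols at 0 share rank 16029 of 23532 in GFP- and rank 17182 in GFP+. Some GFP+ values beside a 0 stand for about 1 fragment, as for *Foxd3* and *Gata1*. The 5 non-coding rows were all in it. Over all 152 members the median difference was 0.03, and over all symbols of the tables it was 0.00. At the 2-fold level, 23 of the 76 members were higher in GFP+ (30.3%, against 20.1% of all genes tested) and 5 were lower (6.58%, against 23.1%). Of the 76, 11 entered through GFP+ alone and 2 through GFP- alone, so their sign was set by the filter. The 23 include *Myt1*, *St18*, *Rfx2*, *Etv1*, *Rfx3*, *Sox5*, *Klf12* and *Sp4* of the first kind, and the 5 include *Gfi1* of the second. The 2-fold shares were not taken without such genes, so the part of the filter in them was not tested. The direction of small differences depends on scaling. Across the 5563 genes with 10 FPKM or more in each library the median log2 ratio was -0.50. With this median set to 0, or with both libraries brought to a single total, 14 of the 24 members below 0 moved above it. The 10 that stayed below 0 under both were *Spdef*, *Etv4*, *Klf5*, *Ehf*, *Gfi1*, *Foxm1*, *Elf3*, *Sox9*, *Foxq1* and *Foxk1*. Both scalings raise the GFP+ values, so no difference becomes lower under them. Counts for the marker and partner lists are for values as deposited.

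Among the Rfx genes the endocrine member stood above the rest. *Rfx6*, a winged-helix factor needed for endocrine differentiation in pancreas and gut (chromosome 10, 51677760 to 51730429, mm10, plus strand), was at 120 FPKM in GFP+ cells and 2.30 FPKM in GFP- cells, a ratio of 52.0 and a difference of 5.19. It held 81.3% of the summed FPKM of the 8 Rfx genes in GFP+ and 15.3% in GFP-, where *Rfx1* was the highest with 29.8%. *Rfx2*, known from the programme of ciliated cells (chromosome 17, 56775897 to 56831008, minus strand), was at 5.67 FPKM in GFP+ cells and 0.367 FPKM in GFP- cells, a difference of 2.29. *Rfx3*, which acts in ciliogenesis and in the pancreatic islet, was at 5.07 FPKM in GFP+ cells and 0.589 FPKM in GFP- cells, and its difference of 1.93 fell just short of the rule. It too entered the comparison through GFP+, so its sign was set by the filter.

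Of the broadly expressed Rfx genes, *Rfx1* was nearly level, while *Rfx7* and *Rfx5* had ratios of 1.68 and 1.66 and differences of more than 1 under both other scalings. *Rfx7* was at 6.27 FPKM in GFP+ cells and 3.72 FPKM in GFP- cells. *Rfx5*, known from the control of MHC class II genes, was at 5.97 FPKM in GFP+ cells and 3.60 FPKM in GFP- cells, and *Rfx1* at 4.57 FPKM in GFP+ cells and 4.49 FPKM in GFP- cells. *Rfx4* and *Rfx8* were below 1 FPKM in both. *Foxj1*, the forkhead factor of motile cilia, was at 0.0136 FPKM in GFP+ and was listed at 0 in GFP-. Of the 7 cilia-associated members (*Foxj1* and *Rfx1* to *Rfx5* with *Rfx7*), 5 reached 1 FPKM, 1 was at least 4-fold higher (background 7.09%) and 0 were lower. The one higher was *Rfx2*, which entered the comparison through GFP+.

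The zinc-finger genes of the Insm, St18 and Myt1 group formed a second endocrine set. *Myt1* (chromosome 2, 181763332 to 181827775, plus strand), which acts with the endocrine programme in pancreas and nervous system, was at 17.8 FPKM in GFP+ cells and 0.393 FPKM in GFP- cells, a difference of 3.76. The related *St18* (chromosome 1, 6487231 to 6860940, plus strand) was at 14.3 FPKM in GFP+ cells and 0.410 FPKM in GFP- cells, a difference of 3.44. *Insm1*, a repressor needed for endocrine cell differentiation (chromosome 2, 146221997 to 146225018, plus strand), was at 15.5 FPKM in GFP+ cells and 1.34 FPKM in GFP- cells, a difference of 2.82. The GFP+ levels of these 3 genes lay close together. Their paralogs were nearly silent, *Insm2* at 0.0333 FPKM and *Myt1l* at 0.00689 FPKM in GFP+, both listed at 0 in GFP-.

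The Gfi1 genes, zinc-finger repressors, lay on the other side. *Gfi1*, which separates goblet and Paneth cells from the endocrine lineage, was at 0.112 FPKM in GFP+ cells and 1.35 FPKM in GFP- cells, a difference of -1.08, and it entered the comparison through GFP-. The 7 Paneth cell markers were all at least 4-fold lower in GFP+, with sums of 834 FPKM in GFP+ cells and 13281 FPKM in GFP- cells, and their part in the *Gfi1* value was not tested. The calls of *Mmp7* and *Pnliprp2*, with differences of -2.23 and -2.47, rest on the deposited scaling. *Gfi1b*, a marker of tuft cells, was at 0.182 FPKM in GFP+ cells and 0.802 FPKM in GFP- cells. The 7 tuft markers, *Gfi1b* among them, summed to 5.60 FPKM in GFP+ cells and 18.8 FPKM in GFP- cells, with 1 at least 4-fold lower (background 4.59%). That was *Rgs13*, at 0.767 FPKM in GFP+ cells and 7.06 FPKM in GFP- cells, a difference of -2.19. It entered the comparison through GFP-, so its sign was set by the filter, and the call rests on the deposited scaling.

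**Figure D2:**
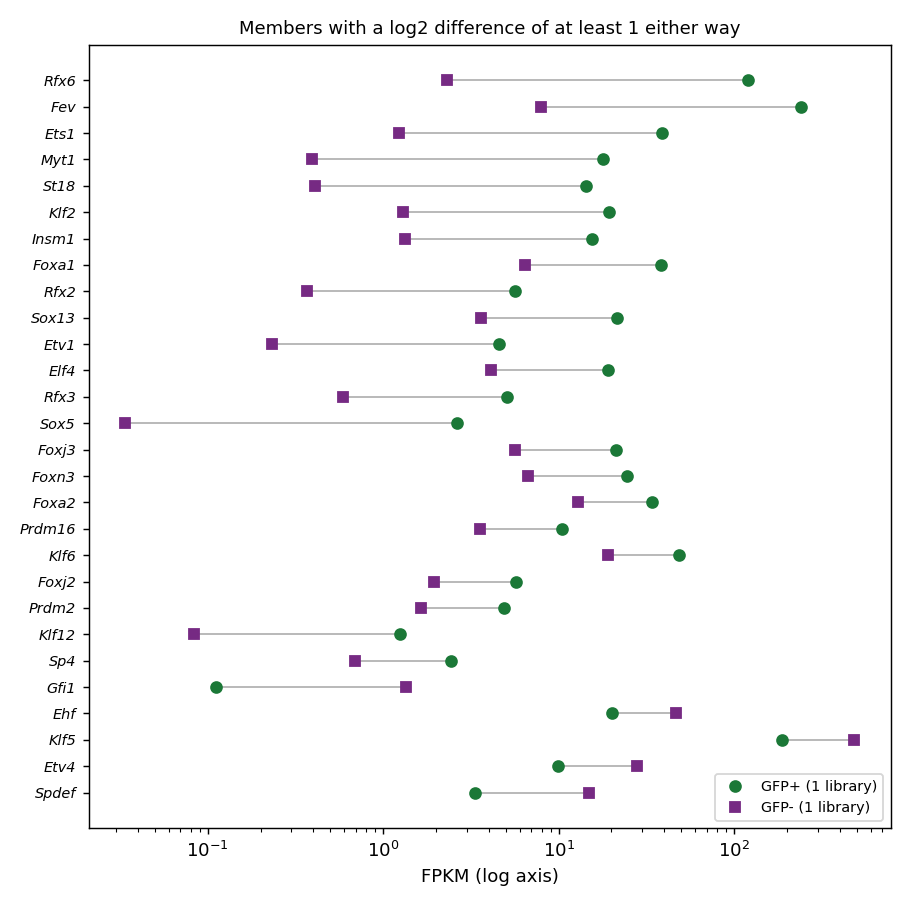
FPKM (log axis) in the GFP+ library (circles) and the GFP- library (squares) of the 28 members with a difference of at least 1 in either direction, ordered by difference. The GFP+ value lies above the GFP- value for 23 of them, and below it for *Spdef*, *Etv4*, *Klf5*, *Ehf* and *Gfi1*.

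In the Ets family *Fev* stood next to *Elf3* at the top in GFP+ and far below it in GFP-. *Fev* (chromosome 1, 74881509 to 74885408, minus strand) was at 240 FPKM in GFP+ cells and 7.97 FPKM in GFP- cells, a ratio of 30.1 and a difference of 4.75, with deposited upper bounds of 566 FPKM in GFP+ cells and 19.0 FPKM in GFP- cells. By level it ranked 225 of 23532 symbols in GFP+ and 7075 in GFP-. It held 30.2% of the summed FPKM of the 20 Ets genes in GFP+ and 1.07% in GFP-. *Elf3*, an epithelial Ets factor, was the most abundant member in both, at 272 FPKM in GFP+ cells and 504 FPKM in GFP- cells, with 34.3% of the sum in GFP+ and 67.6% in GFP-.

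Of 8 serotonin genes listed around the known role of Fev in mouse brain, 4 were higher in GFP+ by the rule (background 7.09%) and 1 was lower (background 4.59%). One of the 4 is *Tph1*, which is not the enzyme of the raphe neurons. *Tph1* and *Ddc* are also among the enterochromaffin markers given above, so their calls repeat that result. *Tph1*, the serotonin-synthesis enzyme of the gut, was at 1359 FPKM in GFP+ cells and 17.5 FPKM in GFP- cells, and *Tph2*, the neuronal enzyme, was listed at 0 in GFP+ and was at 0.00666 FPKM in GFP-. *Slc18a2*, which loads amines into vesicles, was at 94.0 FPKM in GFP+ cells and 0.467 FPKM in GFP- cells. It entered the comparison through GFP+, so its sign was set by the filter. *Ddc* and *Gch1*, enzymes of amine and cofactor synthesis, had differences of 2.63 and 3.23. *Slc6a4*, the serotonin reuptake transporter, went the other way with 9.58 FPKM in GFP+ cells and 42.2 FPKM in GFP- cells. Its difference of -2.03 lies at the edge of the rule, so the call rests on the deposited scaling. *Maob* had a difference of -0.13, which was above 0 under the other scalings, and *Htr1a* was listed at 0 in both libraries. The list was drawn up with earlier results of these data known, and a link between *Fev* and these genes was not tested.

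*Ets1* and *Etv1* were the other Ets genes past the rule. *Ets1*, first described in lymphoid and endothelial cells (chromosome 9, 32696042 to 32757820, plus strand; the annotated gene starts further upstream, at 32636221), was at 39.0 FPKM in GFP+ cells and 1.23 FPKM in GFP- cells, a difference of 4.16. An antisense gene, *Gm27240*, overlaps it, and strand use in the counting is not given. Its paralog *Ets2* was at 97.6 FPKM in GFP+ cells and 67.2 FPKM in GFP- cells, so that *Ets1* made up 28.5% of the pair in GFP+ and 1.80% in GFP-. *Etv1*, known from neurons and from pacemaker cells of the gut wall (chromosome 12, 38780258 to 38868215, plus strand), was at 4.56 FPKM in GFP+ cells and 0.232 FPKM in GFP- cells, a difference of 2.17, the smallest among the 11.

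Within the Etv1, Etv4 and Etv5 group, which act downstream of growth factor signals, the make-up differed. *Etv4* was at 9.91 FPKM in GFP+ cells and 27.9 FPKM in GFP- cells, and *Etv5* at 17.5 FPKM in GFP+ cells and 10.5 FPKM in GFP- cells. *Etv4* thus held 31.0% of the group's FPKM in GFP+ and 72.2% in GFP-, while *Etv5* held 54.7% in GFP+ and 27.2% in GFP-. *Elf4*, known from lymphocytes, was at 19.1 FPKM in GFP+ cells and 4.11 FPKM in GFP- cells, and its difference of 1.97 was the nearest to the rule from below. *Ehf*, an epithelial Ets factor, was at 20.1 FPKM in GFP+ cells and 46.9 FPKM in GFP- cells, a difference of -1.18.

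*Spdef*, the Ets factor of goblet and Paneth cell maturation (chromosome 17, 27714447 to 27728951, minus strand), had the lowest difference of all members, -1.87, with 3.33 FPKM in GFP+ cells and 14.8 FPKM in GFP- cells. It passed the 4-fold rule with a pseudocount of 0.1. In the list of 10 goblet genes 3 were at least 4-fold lower (background 4.59%), 0 were higher and 6 lay between. The 10 summed to 1383 FPKM in GFP+ cells and 3211 FPKM in GFP- cells. The lower ones were *Spink4*, *Agr2* and *Creb3l4*. The call of *Creb3l4*, with a difference of -2.04, rests on the deposited scaling. *Tff3* and *Fcgbp* were abundant in both libraries, *Tff3* at 1008 FPKM in GFP+ cells and 1178 FPKM in GFP- cells and *Fcgbp* at 99.9 FPKM in GFP+ cells and 80.4 FPKM in GFP- cells. The part of goblet cells in the *Spdef* value was not tested.

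**Figure D3:**
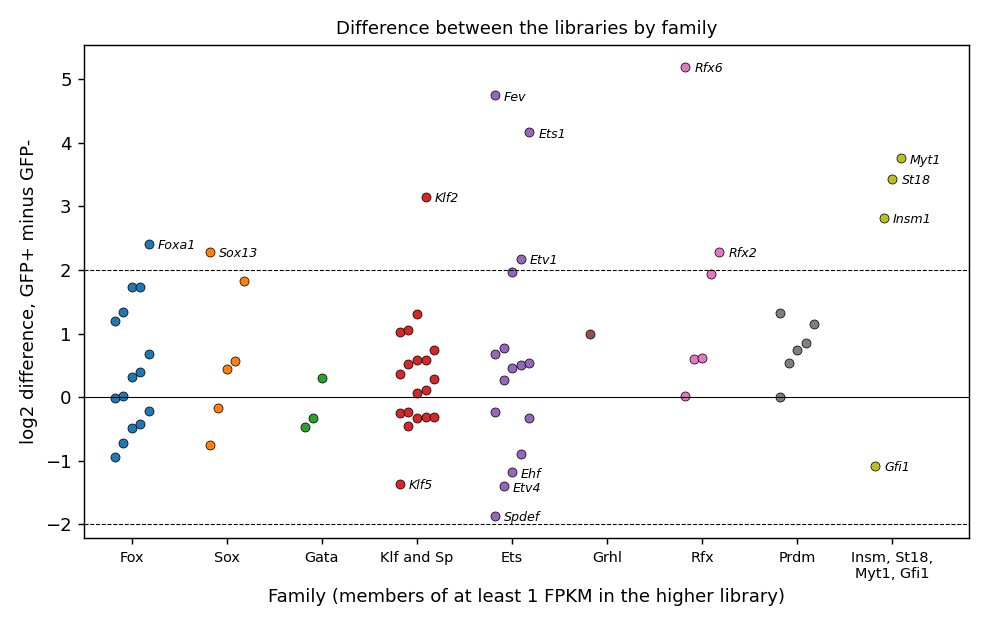
Log2 difference (GFP+ minus GFP-) of the 76 members with 1 FPKM or more in either library, by family; each point is a gene and the dashed lines mark differences of 2 and -2. In 6 of the 9 families 1 to 3 members reach the upper line, no member reaches the lower line, and members past that line or at -1 and below are named.

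The forkhead genes kept their leading member and shifted within the Foxa group. *Foxa1*, which opens compact chromatin for other factors (chromosome 12, 57540632 to 57546121, minus strand), was at 38.5 FPKM in GFP+ cells and 6.43 FPKM in GFP- cells, a difference of 2.41. *Foxa2*, which shares that role, was at 34.2 FPKM in GFP+ cells and 12.9 FPKM in GFP- cells, a difference of 1.34. *Foxa3* was at 55.8 FPKM in GFP+ cells and 75.2 FPKM in GFP- cells. The summed level of the 3 genes was 128 FPKM in GFP+ cells and 94.6 FPKM in GFP- cells, and *Foxa3* made up 43.4% of it in GFP+ and 79.5% in GFP-. Such shares within a library do not depend on how the libraries are scaled.

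No other forkhead gene passed the 4-fold rule as deposited, and *Foxj3* and *Foxn3* came nearest with differences of 1.74 and 1.73. *Foxn3*, a repressor of cell cycle and metabolic genes, was at 24.6 FPKM in GFP+ cells and 6.71 FPKM in GFP- cells, and *Foxj3* at 21.3 FPKM in GFP+ cells and 5.66 FPKM in GFP- cells, and both differences were above 2 under both other scalings. *Foxp4* was at 26.8 FPKM in GFP+ cells and 16.4 FPKM in GFP- cells, and its relative *Foxp1* at 8.89 FPKM in GFP+ cells and 6.91 FPKM in GFP- cells. *Foxq1*, the second forkhead gene in GFP-, was at 12.8 FPKM in GFP+ cells and 21.7 FPKM in GFP- cells. *Foxo1* and *Foxo3*, effectors of insulin signalling, were nearly level, *Foxo1* at 5.03 FPKM in GFP+ cells and 5.99 FPKM in GFP- cells and *Foxo3* at 1.94 FPKM in GFP+ cells and 1.96 FPKM in GFP- cells. Of 10 genes of the FoxO pathway 1 was at least 4-fold higher (background 7.09%) and 0 were lower (background 4.59%), with a median difference of 0.00. The higher one was *Klf2*, which is itself a member here.

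*Foxm1*, the forkhead activator of mitotic genes, shares its row with *4933413G19Rik*. That row was at 5.55 FPKM in GFP+ cells and 11.5 FPKM in GFP- cells, a difference of -0.94. Of 10 of its mitotic targets 6 were at least 4-fold lower in GFP+ (background 4.59%) and 0 were higher, with sums of 205 FPKM in GFP+ cells and 993 FPKM in GFP- cells. Of the 6, *Plk1*, *Ccnb1*, *Aurkb* and *Birc5* had differences of -2.33, -2.31, -2.18 and -2.45. Both other scalings raise the GFP+ values, so these calls rest on the deposited scaling. *Cdc20* was at 33.1 FPKM in GFP+ cells and 225 FPKM in GFP- cells, and *Plk1* at 24.1 FPKM in GFP+ cells and 125 FPKM in GFP- cells. The *Foxm1* row differed by less than those 6 targets. *Cenpf* was the single target above 0, with 3.11 FPKM in GFP+ cells and 1.59 FPKM in GFP- cells. Of the 5 proliferation markers, 3 of which are also on the target list, 3 were at least 4-fold lower (background 4.59%). The lower ones include *Ccnb1* and *Birc5*, whose calls rest on the deposited scaling.

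Among the Sox genes *Sox13* stood out. *Sox13*, a SoxD factor that lacks an activation domain of its own (chromosome 1, 133382300 to 133424212, minus strand), was at 21.6 FPKM in GFP+ cells and 3.63 FPKM in GFP- cells, a difference of 2.29. Its relative *Sox5* was at 2.65 FPKM in GFP+ cells and 0.0339 FPKM in GFP- cells, a difference of 1.82. It entered the comparison through GFP+, so its sign was set by the filter. The difference passed the rule under both other scalings, which raise the GFP+ values, and was 0.60 with a pseudocount of 5. *Sox6*, the remaining SoxD gene, was at 2.04 FPKM in GFP+ cells and 1.04 FPKM in GFP- cells. The 3 genes summed to 26.3 FPKM in GFP+ cells and 4.71 FPKM in GFP- cells.

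The 2 most abundant Sox genes were the same in each library. *Sox9*, a factor of crypt progenitors and Paneth cells, was at 39.4 FPKM in GFP+ cells and 67.3 FPKM in GFP- cells, with 40.9% of the family's FPKM in GFP+ and 63.8% in GFP-. *Sox4*, which promotes tuft and endocrine progenitors in mouse, was at 28.6 FPKM in GFP+ cells and 32.3 FPKM in GFP- cells, with a difference of -0.17 that was above 0 under both other scalings. The 5 stem cell markers included 2 that were at least 4-fold lower (background 4.59%), with sums of 346 FPKM in GFP+ cells and 1373 FPKM in GFP- cells. The lower ones were *Ascl2* and *Olfm4*, and the call of *Olfm4*, with a difference of -2.03, rests on the deposited scaling.

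**Figure D4:**
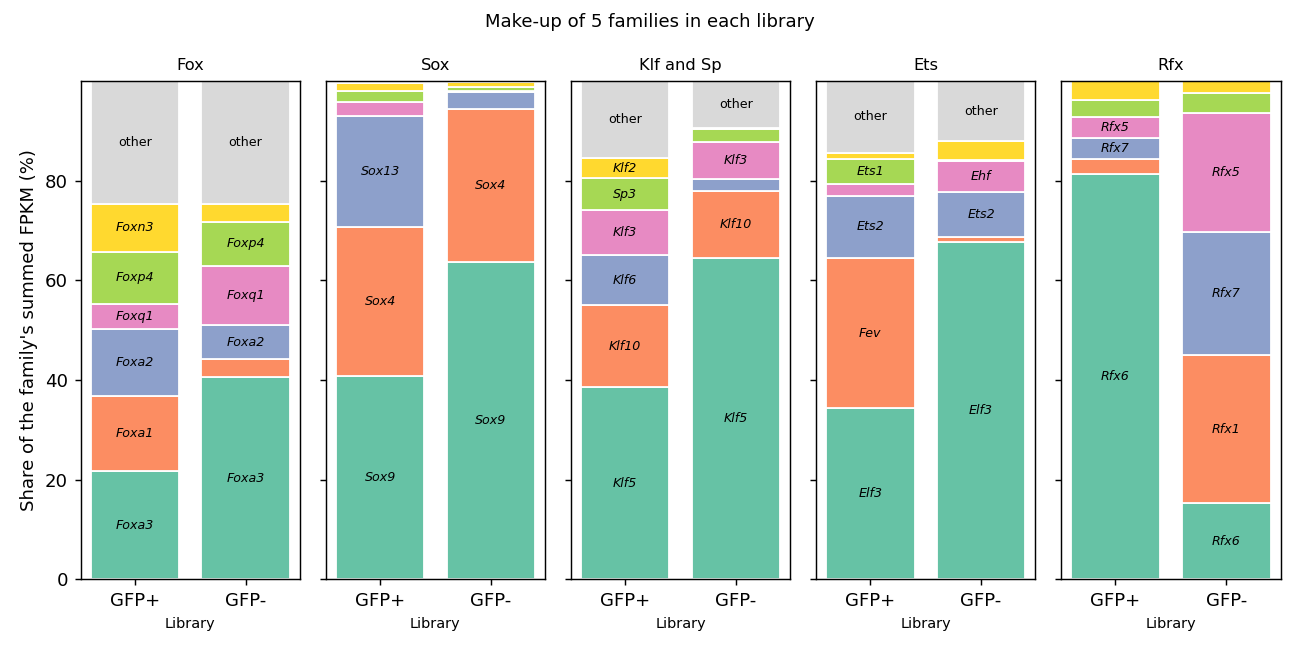
Share of each family's summed FPKM (%) held by its leading 6 members in the GFP+ library (left bar of each pair) and the GFP- library (right bar), with all other members in grey; a colour stands for the same gene in both bars of a panel, and segments of under 4% carry no name. *Fev* takes 30.2% of the Ets bar in GFP+ and 1.07% in GFP-, and *Rfx6* takes 81.3% of the Rfx bar in GFP+ and 15.3% in GFP-.

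The Klf and Sp family was led by *Klf5* in both libraries. *Klf5*, which sustains crypt proliferation, was at 187 FPKM in GFP+ cells and 482 FPKM in GFP- cells, a difference of -1.36, with 38.6% of the family's FPKM in GFP+ and 64.5% in GFP-. *Klf2*, known from endothelium and resting T cells (chromosome 8, 72319062 to 72321654, plus strand), was at 19.5 FPKM in GFP+ cells and 1.30 FPKM in GFP- cells, a difference of 3.15. *Klf6*, an immediate-response member, was at 48.6 FPKM in GFP+ cells and 19.0 FPKM in GFP- cells, a difference of 1.31. *Klf4*, the goblet and villus factor, was at 1.89 FPKM in GFP+ cells and 2.44 FPKM in GFP- cells. *Klf10* and *Klf3* were abundant and nearly level, with differences of -0.32 each that were above 0 under both other scalings.

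The Sp genes, general activators at GC boxes, were led by *Sp3* and then *Sp2* in both libraries. *Sp3* was at 31.1 FPKM in GFP+ cells and 20.3 FPKM in GFP- cells and made up 59.3% of the sum of *Sp1* to *Sp4* in GFP+ and 60.9% in GFP-. *Sp2* followed with 26.2% in GFP+ and 27.6% in GFP-. *Sp4*, known from neurons, was at 2.44 FPKM in GFP+ cells and 0.695 FPKM in GFP- cells, a difference of 1.02, and its share of the sum was 4.66% in GFP+ and 2.08% in GFP-. *Klf12*, a repressor, was at 1.26 FPKM in GFP+ cells and 0.0833 FPKM in GFP- cells, and passed the rule with a pseudocount of 0.1. Both *Sp4* and *Klf12* entered the comparison through GFP+, so their sign was set by the filter.

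Members known from blood, endothelium, mesenchyme, glia or muscle were low apart from *Ets1* and *Klf2*. Of 21 such members 13 were listed at 0 in GFP- and 3 reached 1 FPKM (*Ets1*, *Klf2* and *Sox5*). Of these 3, 2 were at least 4-fold higher (background 7.09%) and 0 were lower (background 4.59%). *Fli1*, the Ets neighbour of *Ets1* that blood and endothelial cells also use, was at 0.0501 FPKM in GFP+ and was listed at 0 in GFP-. *Gata1* was at 0.00961 FPKM in GFP+ and was listed at 0 in GFP-, and *Sox17*, *Foxf2*, *Foxc2* and *Sox2* were listed at 0 in both.

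Markers of these other cell types gave mixed values, and the sum of each of the 5 marker lists was higher in GFP+. *Ptprc*, on all white blood cells, was at 0.0224 FPKM in both libraries, and *Cd3e* was listed at 0 in GFP+ and was at 0.0404 FPKM in GFP-. *Cdh5* of endothelium was at 0.00845 FPKM in GFP+ and was listed at 0 in GFP-, and *Kdr* was listed at 0 in GFP+ and was at 0.00606 FPKM in GFP-. *Pecam1*, which is also on the endothelial list, was at 10.4 FPKM in GFP+ cells and 0.187 FPKM in GFP- cells, and *Lyz2* of the blood list at 6.61 FPKM in GFP+ cells and 0.858 FPKM in GFP- cells. The fibroblast collagen genes *Col1a1* and *Col3a1* were at 1.56 and 1.61 FPKM in GFP+ cells and at 0.0106 and 0.00593 FPKM in GFP- cells. *Cd68* of macrophages was at 2.71 FPKM in GFP+ cells and 0.595 FPKM in GFP- cells, and the neuronal *Tubb3* at 4.58 FPKM in GFP+ cells and 1.51 FPKM in GFP- cells. The blood markers summed to 9.61 FPKM in GFP+ cells and 2.54 FPKM in GFP- cells. The 4 endothelial markers summed to 10.4 FPKM in GFP+ cells and 0.278 FPKM in GFP- cells, and the 5 fibroblast markers to 3.71 FPKM in GFP+ cells and 0.205 FPKM in GFP- cells. The 4 glial markers summed to 1.71 FPKM in GFP+ cells and 0.275 FPKM in GFP- cells, and the 4 neuronal markers to 10.3 FPKM in GFP+ cells and 1.96 FPKM in GFP- cells. The part of such cells in the *Ets1* and *Klf2* values was not tested. At least 4-fold higher among the markers (background 7.09%) were *Lyz2*, *Pecam1* and the neuronal *Rbfox3*. Each was below 1 FPKM in GFP- and entered through GFP+, so its sign was set by the filter.

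No Gata or Grhl gene passed the 4-fold rule. The differences of *Gata4*, *Gata6* and *Gata5* lay between -0.47 and 0.30, and all 3 were above 0 under both other scalings. *Gata4*, which maintains jejunal identity, was at 89.4 FPKM in GFP+ cells and 113 FPKM in GFP- cells. *Gata6*, which overlaps with it in function, was at 54.0 FPKM in GFP+ cells and 43.6 FPKM in GFP- cells. *Gata5* was at 16.9 FPKM in GFP+ cells and 23.8 FPKM in GFP- cells, and its antisense partner *Gata5os* shares the listed locus, at 0.705 FPKM in GFP+ cells and 0.395 FPKM in GFP- cells. *Grhl2*, a factor of epithelial junctions, was at 14.0 FPKM in GFP+ cells and 6.55 FPKM in GFP- cells, a ratio of 2.14 and a difference of 0.99 that was 1.47 and 1.58 under the other scalings, while *Grhl1* and *Grhl3* stayed below 1 FPKM. Of the 20 members known from crypts, absorptive cells or epithelium in general, 17 reached 1 FPKM and 0 passed the 4-fold rule in either direction (background 11.7%). The median difference over the 20 was -0.13. Of the epithelial markers, *Epcam* was at 795 FPKM in GFP+ cells and 991 FPKM in GFP- cells, and *Cdh1* at 353 FPKM in GFP+ cells and 251 FPKM in GFP- cells. The keratins on that list were not level. *Krt8* was at 922 FPKM in GFP+ cells and 2742 FPKM in GFP- cells, and *Krt18* at 459 FPKM in GFP+ cells and 1592 FPKM in GFP- cells. *Krt20* was higher by the rule, at 185 FPKM in GFP+ cells and 34.7 FPKM in GFP- cells. Of the 8 enterocyte markers 2 were at least 4-fold lower (background 4.59%), 0 were higher and 6 lay between, with a median difference of 0.04. The lower ones, *Fabp1* and *Fabp2*, had differences of -2.20 and -2.12, so their calls rest on the deposited scaling. The 8 summed to 1677 FPKM in GFP+ cells and 3538 FPKM in GFP- cells.

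The Prdm genes, which carry a PR domain related to methyltransferases, were low. *Prdm4* was the highest, at 13.2 FPKM in GFP+ cells and 8.83 FPKM in GFP- cells. *Prdm16*, best known from brown fat and neural stem cells, was at 10.4 FPKM in GFP+ cells and 3.58 FPKM in GFP- cells, a difference of 1.32. *Prdm2* was at 4.86 FPKM in GFP+ cells and 1.63 FPKM in GFP- cells. *Prdm9*, which places meiotic recombination in germ cells, was listed at 1.83 FPKM in both libraries, and a processed pseudogene overlaps it on the other strand. *Prdm1*, the regulator of the immature gut epithelium in mouse, was at 0.341 FPKM in GFP+ cells and 0.445 FPKM in GFP- cells.

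The members were also grouped by known role, in lists drawn up with earlier results of these data known. Of the 13 endocrine-associated members 7 were at least 4-fold higher in GFP+ (background 7.09%; *Rfx6*, *Fev*, *Myt1*, *St18*, *Insm1*, *Foxa1* and *Etv1*), 0 were lower and 4 lay between, with sums of 528 FPKM in GFP+ cells and 68.5 FPKM in GFP- cells. Among the 7, *Myt1*, *St18* and *Etv1* had entered through GFP+ with their sign set by the filter. Of 7 members listed for the other secretory lineages 1 was higher (background 7.09%) and 0 were lower (background 4.59%). The higher one was *Sox13*, whose place on that list is uncertain. The 7 summed to 122 FPKM in GFP+ cells and 166 FPKM in GFP- cells. Of 16 enteroendocrine transcription factors of other families, 5 were at least 4-fold higher (background 7.09%) and 0 were lower (background 4.59%). *Lmx1a*, *Nkx2-2*, *Neurod1*, *Pax6* and *Neurod2* had differences of 6.42, 5.06, 5.04, 3.95 and 2.23. Of these, *Pax6* and *Neurod2* were at 0.786 and 0.285 FPKM in GFP- and entered through GFP+, so their sign was set by the filter. *Lmx1a* is also one of the enterochromaffin markers given above. *Neurog3*, the factor of endocrine progenitors, was at 5.53 FPKM in GFP+ cells and 16.6 FPKM in GFP- cells, and *Insm1*, which follows it in the lineage, was at 15.5 FPKM in GFP+ cells and 1.34 FPKM in GFP- cells.

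The reference start site lies within 100 bases of the 5′ end of the locus in the files for 6 of the higher members, and 3 of their promoters are shown, chosen after the motif search. *Foxa1* and *Rfx2* are shown because each held a match to a form of its own family, and *Fev* because it had the highest GFP+ level of the 6. The promoters of *Myt1* and *Sox13* held none of the searched forms, and that of *Klf2* held GC boxes alone. They are from RefSeq on GRCm38.p6 (the mm10 assembly), run from 250 bases before to 50 bases after the gene start, and are written 5′ to 3′ on the gene's strand. Capitals mark the searched letters on either strand, which were CAGATG and CAGCTG (E-box forms), GGGCGG (GC box), CCGGAAG (an Ets form), GTTGCC (part of the Rfx X-box) and TGTTTAC (a forkhead form). Capitals that run on for more than a motif's length are adjoining or overlapping matches.
Fev (chr1:74885359-74885658, minus strand): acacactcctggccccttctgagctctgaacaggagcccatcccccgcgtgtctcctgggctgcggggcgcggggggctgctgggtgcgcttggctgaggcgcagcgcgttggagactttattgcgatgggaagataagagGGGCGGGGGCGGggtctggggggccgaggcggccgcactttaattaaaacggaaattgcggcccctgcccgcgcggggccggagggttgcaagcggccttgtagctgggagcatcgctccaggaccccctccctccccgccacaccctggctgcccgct
Foxa1 (chr12:57546062-57546361, minus strand): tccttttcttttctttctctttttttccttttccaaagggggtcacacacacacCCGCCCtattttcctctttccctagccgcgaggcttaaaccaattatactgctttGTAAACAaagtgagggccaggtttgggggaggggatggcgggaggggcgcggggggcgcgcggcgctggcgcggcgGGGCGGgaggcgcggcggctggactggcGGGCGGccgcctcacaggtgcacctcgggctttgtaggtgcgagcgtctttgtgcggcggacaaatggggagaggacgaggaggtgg
Rfx2 (chr17:56830959-56831258, minus strand): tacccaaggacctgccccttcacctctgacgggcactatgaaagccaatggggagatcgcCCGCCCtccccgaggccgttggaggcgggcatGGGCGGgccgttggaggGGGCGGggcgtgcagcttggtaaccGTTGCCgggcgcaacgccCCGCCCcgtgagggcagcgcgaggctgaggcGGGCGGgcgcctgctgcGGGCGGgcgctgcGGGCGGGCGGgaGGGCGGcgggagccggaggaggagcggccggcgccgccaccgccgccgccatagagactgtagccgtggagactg

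The *Foxa1* promoter held 1 match to the forkhead form, on the opposite strand and beginning at position -141 from the start, a form found in 3.65% of all 32817 promoters of the table. The *Rfx2* promoter held 1 match to the X-box part at position -116, a form found in 12.5% of promoters. The *Fev* promoter held GC boxes at positions -109 and -103 and no match to the Ets form, which 8.86% of promoters hold. GC boxes were in 4 of the 6 promoters of higher members that met the start-site condition (*Fev*, *Myt1*, *Klf2*, *Foxa1*, *Rfx2* and *Sox13*) and in 35.6% of all promoters. The E-box forms CAGATG and CAGCTG, in 17.2% and 16.3% of all promoters, were in 0 of the 6. A match is a run of letters and not a binding site.

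**Figure D5:**
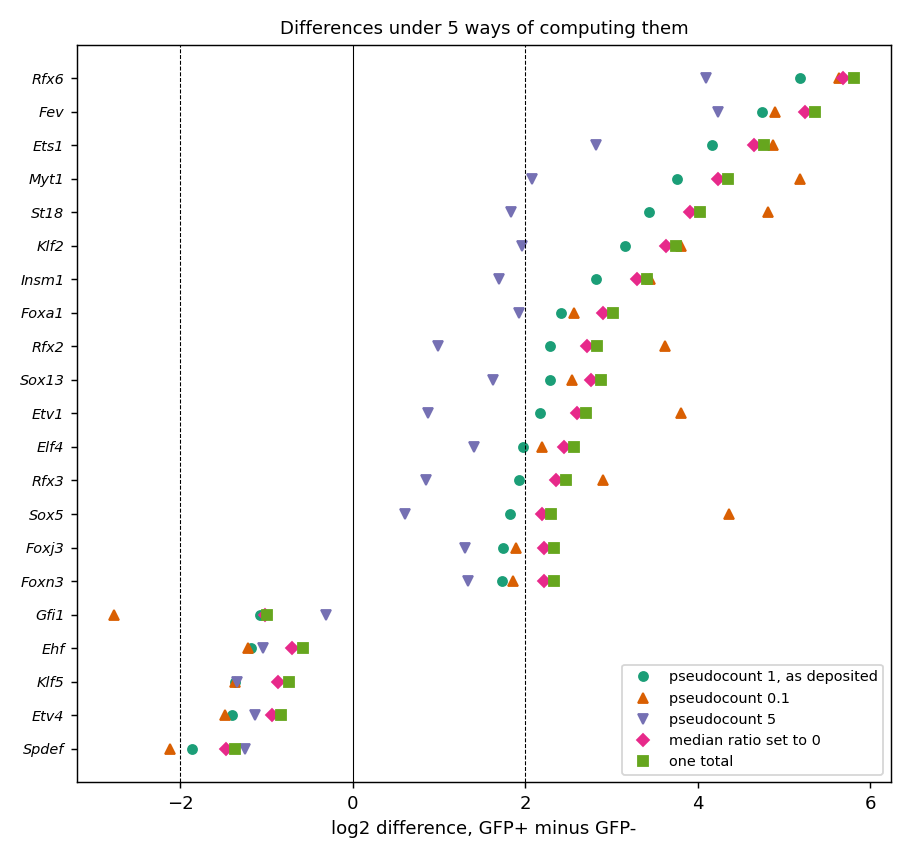
Log2 difference (GFP+ minus GFP-) of 21 members, namely those of at least 1.7 or at most -1 as deposited, under 5 ways of computing it; the dashed lines mark 2 and -2. *Rfx6*, *Fev*, *Ets1* and *Myt1* stay above 2 under all 5. The differences of *Sox5*, *Myt1*, *St18* and *Etv1*, all below 1 FPKM in GFP-, spread most with the pseudocount.

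The size of the differences of low genes rests on the pseudocount. With 5 FPKM added in place of 1, *Rfx6*, *Fev*, *Ets1* and *Myt1* alone passed the 4-fold rule, and the other 7 did not. With 0.1 FPKM added, *Elf4*, *Rfx3*, *Sox5* and *Klf12* passed it as higher and *Spdef* and *Gfi1* as lower. The deposited lower confidence bound is 0 for every member in both libraries, so that the bounds of the 2 libraries overlap for each.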

How the data were processed

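Polyadenylated RNA of 1 GFP+ and 1 GFP- sorted fraction was amplified with the SMARTer Ultra Low Input kit, per the labels' protocols. The authors deposited FPKM per gene with confidence bounds, per the file headers. FastQC, TopHat2 0.7, Cufflinks, Cuffdiff and mm10 come from the submitters' processing notes, while the annotation and the strand setting are not given in the sources used. FPKM was summed per symbol with Python 3.11.15 and pandas 2.3.3, without the 5 rows that Cuffdiff could not estimate in GFP+, and differences were taken with a pseudocount and a minimum of 1 FPKM. All member rows had the status OK, 4 joined another symbol and 20 shared their locus with another row. All were matched to GENCODE M21, and 109 members to RefSeq promoters.

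Members and lists were chosen with earlier results of these data known. Named genes are those past the 4-fold rule or within 0.25 of it, the extremes of each family and role-list members of at least 1 FPKM; others, such as *Klf12*, *Foxj3*, *Sp3* and *Etv5*, were chosen after their values were seen. FPKM gives no depth, but low values of single-transcript genes came in steps of about 59.8 fragments per FPKM and kilobase in GFP+ and 59.0 in GFP- (59.0% of low values in GFP+ and 75.2% in GFP- lay within 0.1 of a whole step, which was chosen from the same values). On that scale the 11 higher members had about 89.8 to 1211 fragments in GFP-, by their longest transcript. Such figures cover counting error only, as amplified reads carried no molecular identifiers. Alternatives changed the pseudocount, scaling, filter, joined rows and size of the rule. One listed blood marker is not reported here.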

Additional observations from a re-analysis of the deposited data

How the results depend on the processing

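With a pseudocount of 0.1, 2 members were at least 4-fold lower, the median difference over all members was 0.21 and 1524 genes in all were higher. With a pseudocount of 5, 4 members were higher, and over all genes 353 were higher and 315 lower. With the median log2 ratio set to 0, 1317 genes were higher and 184 lower. With both libraries rescaled to a single total, 1448 were higher and 133 lower and the member median was 0.19. The median difference of all genes tested was -0.12 as deposited, 0.35 with the median ratio set to 0 and 0.46 with a single total. Over the members of at least 5 FPKM the median was 0.53, since fewer genes enter. With a 2-fold rule 23 members were higher and 5 lower, and over all genes 2380 were higher and 2743 lower. All 11 higher members were also called with a pseudocount of 0.1 and under both scalings. That could not come out otherwise, as a smaller pseudocount enlarges a positive difference and both scalings raise the GFP+ values. The pseudocount of 5 makes such differences smaller, and 4 of the 11 passed with it. Leaving out joined and repeated symbols, the filter or the non-coding rows (the last chosen after seeing the data) left 11 higher and 0 lower members, and a 5 FPKM filter left 10 higher. Leaving out the filter or the non-coding rows could not change these counts. A difference of 2 needs more than 1 FPKM in the higher library, and the non-coding rows all stayed below 1 FPKM. No paired analysis was possible because each fraction has 1 library, and no library could be left out for the same reason. With 1 library per fraction, a difference between the cells and a difference between the libraries cannot be told apart.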
